A study of Mus musculus with 4 samples.

Results

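The 10 pan-reactive astrocyte genes Gfap, Vim, Lcn2, Serpina3n, Steap4, Cp, Cd44, S1pr3, Aspg and Hspb1 were followed in cultured mouse prefrontal cortex (PFC) with and without fibroblast growth factor 2 (FGF2). They are 10 of the 55421 genes in each count file and were selected on the same contrast that is described here, FGF2 against no FGF2, so their differences are given as a description without a test. All 10 symbols were found, each as 1 row of the counts. All cells were PFC cells of wild-type C57BL/6 mice on postnatal day 0 (P0), freed of meninges and vessels, dissociated with papain and grown for 10 days in neurobasal medium with B27 and glutaMAX. The FGF2 group received 5 ng/mL FGF2 and had 2 libraries, and the no FGF2 group had none added and had 2 libraries. The cultures were mixed and no astrocytes were sorted. The number of animals behind a culture was not stated. By the study's methods, replicates were biological for samples of 2 human ages and technical otherwise, without naming the mouse libraries. The mouse labels carry a B and a number and do not say whether the libraries are separate cultures. The 2 mouse libraries of a group are read here as technical replicates, which is uncertain. Every SD, SE and p-value here measures only the spread between such libraries.

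Reactive astrocytes are astrocytes that have changed their shape and gene expression after injury, infection or inflammation. The pan-reactive genes are those that rise in astrocytes after both endotoxin and ischemia, whereas other genes rise mainly after one of them. Cytokines such as IL-1, TNF and the IL-6 family drive much of this program through NF-kB, STAT3 and C/EBP factors.

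The libraries held 9166432 to 10799886 counts on genes. At this depth 3 counts, the limit that a count of 0 allows, correspond to 0.278 to 0.327 CPM, which is counts scaled to one common library size, and such limits cover counting error only. Expression is given as CPM after scaling by trimmed mean of M-values (TMM), as the mean ± SD of 2 libraries. Of 17144 genes tested with edgeR at an adjusted p below 0.05, 20.7% were higher with FGF2, 19.9% were lower and 40.5% passed in either direction, and the median log2 fold change over these genes was -0.00082. Homeostatic astrocyte markers were present in all libraries, with Slc1a3, a glutamate transporter, at 2475 and 2624 CPM with FGF2 and 1836 and 1811 CPM without, and Aqp4, the water channel of astrocyte endfeet, at 1620 and 1691 against 964 and 970 CPM. In RNA from whole cultures, fewer cells of a type and less RNA per cell cannot be told apart.

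The windows around the transcription starts of the 10 genes were read from RefSeq on GRCm38.p6, with 250 bases before and 50 after each start. All 10 genes matched, in 11 windows, since Cp has 2. Stretches of 4 genes upstream of the start are shown because their folds span the range from Lcn2 to Hspb1 and for the letters they hold. Those of Steap4, Lcn2 and Serpina3n hold letters of the pathways named above, and that of Hspb1 holds heat shock letters. For Gfap 30 bases across the start are shown. Capitals mark matches on either strand to the NF-kB letters GGGANNNNCC, the STAT letters TTCNNNGAA, the C/EBP letters TTGCNNAA or the heat shock letters GAANNTTC. Each sequence is printed 5′ to 3′ on the strand of its gene. The stretches of Lcn2 and Gfap lie inside the gene bodies of GENCODE M21, which holds longer transcripts of both genes, and the other 3 lie upstream of them.
Steap4, chr5:7960222-7960456, plus strand, an NF-kB, a STAT, a C/EBP and an NF-kB match in this order: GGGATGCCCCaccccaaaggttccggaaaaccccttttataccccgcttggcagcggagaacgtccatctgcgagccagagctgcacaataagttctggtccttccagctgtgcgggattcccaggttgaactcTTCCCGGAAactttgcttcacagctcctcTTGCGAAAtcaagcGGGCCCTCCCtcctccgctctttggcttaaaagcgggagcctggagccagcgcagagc
Lcn2, chr2:32387798-32387989, minus strand, 1 C/EBP match: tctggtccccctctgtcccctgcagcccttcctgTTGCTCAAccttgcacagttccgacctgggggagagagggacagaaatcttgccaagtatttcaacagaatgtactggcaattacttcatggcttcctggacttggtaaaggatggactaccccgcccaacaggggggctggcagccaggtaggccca
Serpina3n, chr12:104406458-104406707, plus strand, 2 NF-kB matches: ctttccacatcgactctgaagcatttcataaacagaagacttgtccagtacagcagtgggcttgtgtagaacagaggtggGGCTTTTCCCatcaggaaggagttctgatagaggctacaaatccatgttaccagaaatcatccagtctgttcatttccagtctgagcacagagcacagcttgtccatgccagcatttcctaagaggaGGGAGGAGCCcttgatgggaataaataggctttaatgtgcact
Hspb1, chr5:135887669-135887918, plus strand, 2 heat shock matches: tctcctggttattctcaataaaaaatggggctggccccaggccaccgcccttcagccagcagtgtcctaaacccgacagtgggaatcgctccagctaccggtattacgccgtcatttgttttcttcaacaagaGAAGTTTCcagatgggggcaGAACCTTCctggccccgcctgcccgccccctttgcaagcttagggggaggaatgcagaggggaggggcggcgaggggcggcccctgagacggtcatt
Gfap, chr11:102897184-102897213, minus strand, 1 STAT match: aatgggggtgcTTCCAGGAAgtcaggggca
The NF-kB letters were in windows of 5 of the 10 genes, namely Cp, S1pr3, Serpina3n, Steap4 and Vim, and in 20.7% of 32851 promoter windows of the same length. The STAT letters were in Gfap and Steap4, against 8.3% of all windows. The C/EBP letters were in Cp, Lcn2 and Steap4, against 10.8% of all windows. The AP-1 letters TGANTCA were in 1 of the windows of Cp, against 7.81%, and the heat shock letters were in Hspb1, 117 and 97 bases before its start, against 7.86%. Matches of different letters may overlap, and a match is a run of letters and not a shown binding site.

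The 2 intermediate filament genes had the highest levels of the 10 and small folds among them. Gfap, the astrocyte filament protein, lies on chr11:102887336-102900912 on the minus strand and was at 5945 and 5641 CPM in the FGF2 libraries and at 2781 and 2770 CPM in the no FGF2 libraries. Both FGF2 libraries of Gfap were above both no FGF2 libraries, and the means of 5793 ± 215 and 2776 ± 7.78 CPM differed 2.09-fold. Vim, vimentin, a filament gene of progenitors, astrocytes and mesenchymal cells, lies on chr2:13573927-13582826 on the plus strand. It was at 1580 and 1570 CPM with FGF2 and at 664 and 683 CPM without, a 2.34-fold difference between means of 1575 ± 6.89 and 674 ± 13.6 CPM, and its groups did not overlap either.

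Among the 8 genes with a mean of at least 5 CPM, Lcn2, Steap4, Cp and Serpina3n had the widest differences. Lcn2, lipocalin 2, a secreted protein that binds iron-carrying siderophores, lies on chr2:32384633-32388252 on the minus strand and was at 464 and 436 CPM with FGF2 against 12.3 and 15.0 CPM without. Its means were 450 ± 20.0 and 13.6 ± 1.9 CPM, a 33.0-fold difference, and both FGF2 libraries were far above the others. Steap4, a metalloreductase of iron and copper, lies on chr5:7960457-7982213 on the plus strand and was at 322 and 301 CPM against 17.3 and 16.2 CPM, or 18.6-fold. Cp, ceruloplasmin, the copper-carrying ferroxidase, lies on chr3:19957054-20009145 on the plus strand and was at 634 and 662 CPM against 49.5 and 44.4 CPM, or 13.8-fold. Lcn2, Steap4 and Cp were at under 50 CPM in every no FGF2 library and over 300 CPM in every FGF2 library. Serpina3n, a secreted serine protease inhibitor, lies on chr12:104406729-104414329 on the plus strand and was at 412 and 396 CPM against 63.5 and 68.4 CPM, a 6.12-fold difference between means of 404 ± 11.5 and 66.0 ± 3.51 CPM.

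The folds of the 2 surface receptors lay between those of the filament genes and that of Serpina3n. Cd44, the hyaluronan receptor, lies on chr2:102811141-102901665 on the minus strand and was at 328 and 337 CPM with FGF2 and at 65.6 and 68.4 CPM without, or 4.96-fold. S1pr3, a receptor for sphingosine-1-phosphate, lies on chr13:51408639-51422797 on the plus strand and was at 476 and 502 CPM against 180 and 182 CPM, or 2.7-fold. Neither gene overlapped between groups.

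Aspg and Hspb1 were near the limit of detection. Aspg, an asparaginase, lies on chr12:112106679-112127559 on the plus strand and had 14 and 10 counts in the FGF2 libraries and 0 and 3 counts in the no FGF2 libraries. The summed counts, scaled for depth, gave a ratio of 8.92 with an exact 95% counting interval of 2.71 to 46.3. Aspg passed the filter on low counts through the FGF2 group alone, and its fitted log2 fold change of 3.07 ± 0.85 (SE) ran from 2.15 to 6.66 when 1 library was left out, the highest without no FGF2 replicate 2. Hspb1, a small heat shock protein that also binds filaments, lies on chr5:135887919-135889563 on the plus strand and had 10 and 7 counts against 6 and 6. Its ratio was 1.58 with an interval of 0.711 to 3.62, so no difference was detectable at this depth. Of the main Hspb1 transcript, 76.1% lies in stretches near-identical to 2 pseudogenes, Hsp25-ps1 and Gm9817, which had 0 counts in all libraries, and reads that map equally well to both are removed by a mapping quality filter, so the counts of Hspb1 can be too low.

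For all 10 genes both FGF2 libraries were above both no FGF2 libraries, as were those of 33.6% of the 17144 tested genes, and since the genes were chosen on this contrast nothing is read from that count. The median log2 fold change of the 10 genes was 2.46, and it was 2.46 for the 8 with a mean of at least 5 CPM. Among these 8, Gfap had the smallest value at 1.06 and Lcn2 the largest at 5.04, and 898 and 26 of the tested genes had larger values than they did. The rule had no threshold of its own, so no gene lay just outside it.

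**Figure D1:**
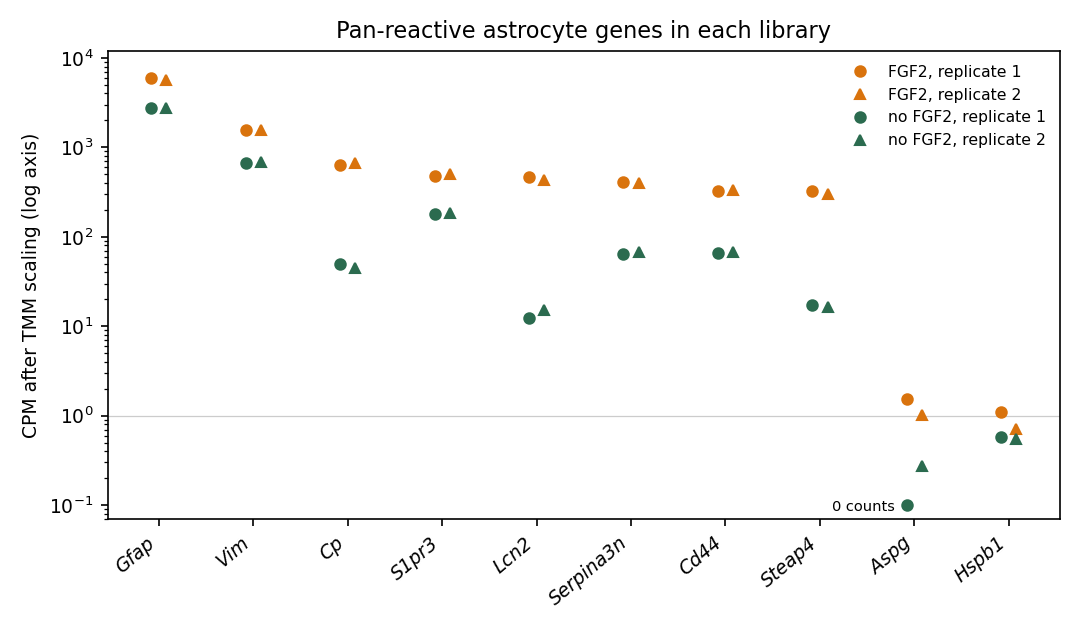
TMM-scaled CPM on a log axis of the 10 pan-reactive genes in each of the 4 libraries, with orange for FGF2 and green for no FGF2, and circles and triangles for replicates 1 and 2. The FGF2 symbols lie above the no FGF2 symbols for every gene, as they do for 33.6% of all tested genes, from 5945 and 5641 against 2781 and 2770 CPM for Gfap to counts of 10 or fewer per library for Hspb1, and the Aspg library with 0 counts is drawn at the foot of the axis.

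Summed over the 10 genes, the level was 10165 and 9846 CPM with FGF2 and 3833 and 3849 CPM without. Gfap alone gave 72.6% and 72.0% of this sum in the no FGF2 libraries and 58.5% and 57.3% in the FGF2 libraries. Gfap and Vim together gave 89.9% and 89.7% without FGF2 and 74.0% and 73.2% with it. A level of the program read from Gfap or from the sum therefore weighs the filament genes, with folds of 2.09 and 2.34, more than the genes with the wider folds.

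Levels of different genes were compared per kilobase of exonic length. In the no FGF2 libraries the order was Gfap at 658 CPM per kb, Vim at 142, S1pr3 at 40.5, Serpina3n at 32.0, Cd44 at 9.88, Steap4 at 5.31, Lcn2 at 5.19, Cp at 4.91, Hspb1 at 0.546 and Aspg at 0.0393. Steap4 and Lcn2 overlapped between libraries, as did Lcn2 and Cp, so the order of these neighbours was not beyond their spread. In the FGF2 libraries the order was Gfap at 1373 CPM per kb, Vim at 332, Serpina3n at 196, Lcn2 at 172, S1pr3 at 110, Steap4 at 98.7, Cp at 67.8, Cd44 at 49.0, Hspb1 at 0.88 and Aspg at 0.363, and no neighbours overlapped. Lcn2 moved from rank 7 to rank 4, and from the 50.2nd to the 99.5th percentile of levels per kb. Gfap stood at the 99.9th percentile in both groups. The level per kb of Hspb1 can be too low, since reads that its pseudogenes share are removed.

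The 10 genes were also set against the homeostatic astrocyte markers of the same library. The mean log2 CPM of the 14 tested markers was 8.05 and 8.04 with FGF2 and 7.83 and 7.83 without, a difference of 0.21. Relative to that mean, the log2 level of Lcn2 was 0.80 and 0.73 with FGF2 and -4.20 and -3.92 without, a difference of 4.83. Steap4 differed by 4.0 on this log2 scale, Cp by 3.57, Serpina3n by 2.40 and Cd44 by 2.1. S1pr3 differed by 1.22, Vim by 1.01 and Gfap by 0.85, with Gfap at 4.48 and 4.43 against 3.61 and 3.60. Gfap and Vim lay above the marker mean in every library, whereas Lcn2, Steap4, Cp, Serpina3n, Cd44 and S1pr3 lay below it in both no FGF2 libraries and above it in both FGF2 libraries. Aspg and Hspb1 lay over 7 log2 units below it in all 4 libraries, though the counts of Hspb1 can be too low, as given above.

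**Figure D2:**
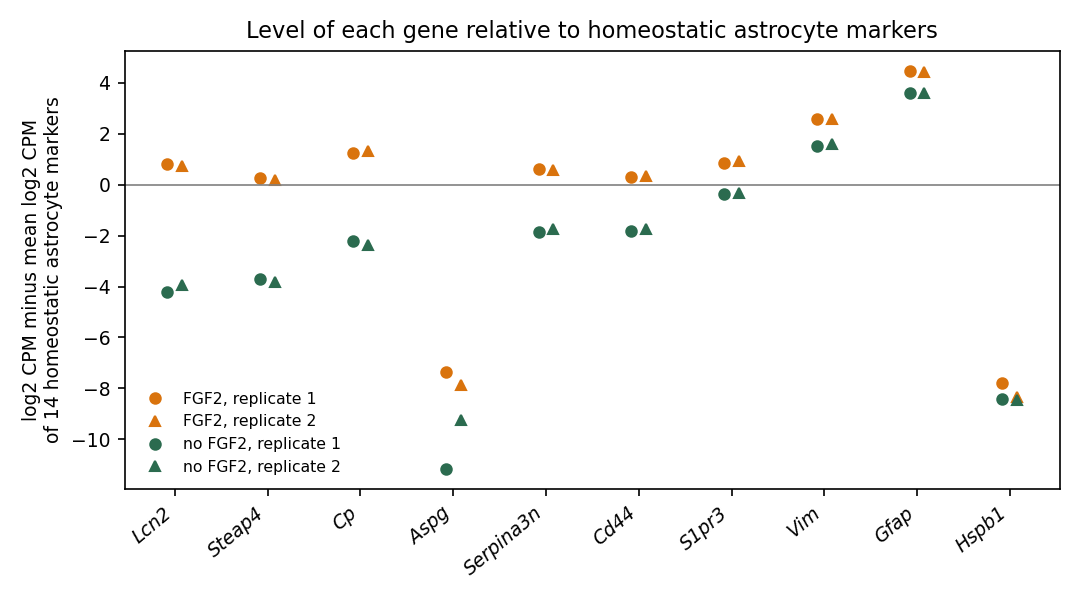
Log2 CPM of each pan-reactive gene minus the mean log2 CPM of 14 homeostatic astrocyte markers in the same library, with colors and symbols for group and replicate and a line at 0, the marker mean. The gap between groups is widest for Lcn2 at 4.83 and is 0.85 for Gfap, and Gfap and Vim are above 0 in all libraries.

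Other genes of the reactive program were counted from lists of genes that were not among the 10, with adjusted p-values of edgeR over all tested genes. All 3 of the other pan-reactive genes rose. Cxcl10, a chemokine for T cells, rose from 4.09 and 5.73 CPM to 275 and 258 CPM, or 54.0-fold, and Osmr, the oncostatin M receptor, rose from 60.2 and 63.3 to 292 and 299 CPM. The groups of both genes were far apart. Timp1, an inhibitor of metalloproteinases, was at 1.43 and 1.66 CPM without FGF2 and 5.73 and 5.90 CPM with it, a log2 fold change of 1.90 ± 0.34 (SE).

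Of 12 genes described as rising mainly after endotoxin, 8 rose, 0 fell and 4 did not pass, with a median log2 fold change of 1.59. With DESeq2 in place of edgeR 7 passed, and where at least 10 counts were required in every library, 6 passed. H2-T23, named for its counts, had 8 and 6 counts without FGF2, and Srgn had 4 and 5. Both passed the filter on low counts through the FGF2 group alone, so the count of 8 is partly set by the filter. Gbp2, an interferon-induced GTPase, rose from 11.6 and 10.6 to 193 and 190 CPM, or 17.2-fold. C3, the central complement protein, rose from 242 and 253 to 1039 and 1009 CPM, and Serping1, the C1 inhibitor, rose 5.57-fold. Ggta1, a galactosyltransferase, rose 2.47-fold. Iigp1, Fbln5, Fkbp5 and Amigo2, named after their values were seen as the 4 that did not pass, had log2 fold changes of 0.03, 0.27, -0.21 and -0.23. Srgn, also named for its value, lost its call without FGF2 replicate 2, where its adjusted p was 0.16.

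Of 12 genes described as rising mainly after ischemia, 11 were tested, 7 rose and 0 fell, with a median of 1.25. With DESeq2 6 passed, and 5 passed where at least 10 counts were required in every library. Ptgs2, the inducible cyclooxygenase, had 3 and 2 counts without FGF2 and 87 and 105 counts with it, a ratio of 42.8 with a counting interval of 18.0 to 133. Cd14, named for its counts, had 4 and 4 counts without FGF2 and 82 and 82 with it. Both genes passed the filter through the FGF2 group alone, so the count of 7 is partly set by the filter. Ptx3, a secreted pentraxin, rose 10.3-fold, Clcf1, a cytokine of the IL-6 family, rose 5.38-fold and Tgm1, a transglutaminase, rose 5.09-fold. S100a10, Emp1, B3gnt5 and Sphk1, named after their values were seen as the 4 that did not pass, had log2 fold changes of 0.07, -0.06, 0.11 and 0.99. Tm4sf1 lost its call without FGF2 replicate 2 or no FGF2 replicate 2, with adjusted p-values of 0.11 and 0.13. Genes of both lists thus rose in these cultures beside the 10, and the difference between the lists was not tested.

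Of 18 signals, receptors and regulators of reactive astrocytes, 16 were tested and all 16 rose, with a median of 1.62, while 12 passed with DESeq2 and 11 where at least 10 counts were required in every library. Il1a, Il1b, Il6, Tnf and Cebpb had under 10 counts in each no FGF2 library and could enter the test only by being higher with FGF2, so the full count of 16 is partly set by the filter. Cebpd, a C/EBP factor, rose from 4.47 and 3.79 to 41.3 and 40.6 CPM, or 9.9-fold. Lif, a cytokine that signals through STAT3, rose 3.96-fold, Socs3, a feedback inhibitor of STAT3 signalling, rose 2.8-fold, and Nfkb1, an NF-kB subunit, rose 2.54-fold. The transcripts of the cytokines Il1a, Il1b and Il6 were under 2 CPM in every library. Tnf, named like Tgfb1 after its values were seen, was at 6.50 and 5.69 CPM with FGF2 and had 2 and 2 counts without, a ratio of 32.0 with a counting interval of 12.2 to 120, and Tgfb1 was at 6.94 and 8.34 CPM against 2.66 and 0.924 CPM. Il1a had 28 counts over both FGF2 libraries and 0 over both no FGF2 libraries, and the exact counting interval of its ratio starts at 7.92. Set against an assumed floor of 3 counts over the no FGF2 group, the ratio was 10.4, which leaves out the counting error of the 28 counts. Il1b had 24 against 2 counts, a ratio of 13.4 with a counting interval of 3.32 to 117, and Il6 had 30 against 1, a ratio of 33.4 with an interval of 5.56 to 1360. Cntf and Edn1 had under 4 counts in every library. The calls of Il1r1 and Lifr were lost without no FGF2 replicate 1, with adjusted p-values of 0.058 and 0.10, and that of Cebpb without FGF2 replicate 1 or no FGF2 replicate 1, with 0.15 and 0.054.

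Markers of cell types were read beside these results. Of 15 homeostatic astrocyte markers, 14 were tested, 9 rose and 3 fell, with a median of 0.28. Aqp4 rose 1.71-fold, Aldh1l1, a folate enzyme used as an astrocyte marker, rose 1.63-fold, Slc1a3 rose 1.4-fold and Mlc1, an endfoot membrane protein, rose 1.37-fold. Fgfr3, an FGF receptor, fell to 0.738 times and Slc4a4, a bicarbonate transporter, to 0.86 times the no FGF2 level, and both were named after their values were seen. Ntsr2 fell in the fit of all libraries and lost its call without FGF2 replicate 2 or no FGF2 replicate 1, with adjusted p-values of 0.16 and 0.21. The summed level of this list was 8230 to 8340 CPM with FGF2 and 6182 to 6236 CPM without.

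All 9 tested of 10 oligodendrocyte lineage markers rose, with a median of 2.05 and a summed level of 1864 to 1873 CPM against 560 to 569 CPM. Mag, a myelin adhesion protein, rose 6.0-fold, Sox10, the transcription factor of the lineage, rose 5.31-fold and Mbp, myelin basic protein, rose 4.52-fold. Of 10 pan-neuronal markers 8 fell and 1 rose, with a median of -0.46, and their summed level was 3542 to 3682 CPM against 5175 to 5202 CPM. Nefl, the one that rose, lost its call without no FGF2 replicate 2, with an adjusted p of 0.054. Tubb3, a neuronal tubulin, was at 0.468 times its no FGF2 level, Rbfox3, a neuronal splicing factor, at 0.534 times, Dcx, doublecortin, at 0.576 times and Syt1, a synaptic vesicle protein, at 0.715 times. Cd44 and S1pr3 and the filament gene Vim are also expressed by cells other than astrocytes, and the part of these shifts in the levels of the 10 genes was not tested.

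Of 9 progenitor and radial glia markers, which include cells that express Vim, 3 rose and 4 fell, with a median of -0.43. Hopx was at 0.493 and Tnc, tenascin C, at 0.629 times the no FGF2 level, whereas Ptprz1, a phosphatase receptor, rose 1.36-fold and Pax6 rose 1.35-fold. Nes at 0.748 and Fabp7 at 0.743 times the no FGF2 level, named after their values were seen, also fell. The summed level of the list was 2228 to 2261 CPM against 1974 to 1998 CPM. Ptprz1 alone gave 1574 and 1596 CPM of it with FGF2 and 1158 and 1165 CPM without, so the sum mostly follows this gene. The part of these markers in the level of Vim was not tested.

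Microglia also express inflammatory genes, and 4 of their 12 markers rose and 0 fell among 8 tested, with a summed level of 43.2 to 46.7 CPM against 27.7 to 29.2 CPM. Without FGF2 replicate 2 or without no FGF2 replicate 2 only 2 of these markers passed. C1qb lost its call without any 1 of the 4 libraries, with adjusted p-values of 0.066 to 0.19, and Cx3cr1 without FGF2 replicate 2 or no FGF2 replicate 2, with 0.19 and 0.14. Fibroblast and mural markers, of which 8 of 10 were tested, rose in 2 cases and fell in 3, with a median of -0.50 and a summed level of 67.2 to 71.5 CPM against 60.2 CPM in both no FGF2 libraries. Pdgfrb, a pericyte receptor, rose 1.66-fold. It gave 49.2 and 46.6 CPM of the summed level with FGF2 and 28.6 and 28.9 CPM without. The collagen genes Col1a1 and Col1a2, named after their values were seen, fell to 0.22 and 0.301 times the no FGF2 level. Kcnj8 had under 4 counts in every library. Tagln lost its call without FGF2 replicate 2 or no FGF2 replicate 1, with adjusted p-values of 0.05 and 0.14. Endothelial markers summed to 13.6 to 16.0 CPM against 6.76 to 10.8 CPM, with 2 of 4 tested higher and 1 lower. Flt1, 1 of the 2 that were higher, is named for its counts of 52 and 36 with FGF2 and 6 and 9 without. It passed the filter on low counts through the FGF2 group alone and could enter the test only by being higher. Slco1a4, the other, was named after its values were seen, at 5.62 and 5.59 CPM with FGF2 and 1.05 and 1.29 CPM without. Flt1 was at 5.73 and 3.66 against 0.571 and 0.831 CPM, so the higher endothelial sum rests on these 2 genes. Cldn5, the endothelial tight junction protein, was at 0 in all 4 libraries, while Cdh5 had under 4 counts in each. Kdr, the one that was lower, lost its call without FGF2 replicate 1 or no FGF2 replicate 2, with adjusted p-values of 0.23 and 0.61. Of 7 ependymal markers 4 fell and 0 rose, among them Ccdc153 at 0.471, Rsph1 at 0.669 and Tppp3 at 0.865 times the no FGF2 level, and Tppp3 lost its call without FGF2 replicate 1, FGF2 replicate 2 or no FGF2 replicate 1. The summed levels of the microglia and of the endothelial markers were higher with FGF2, the endothelial sum through Flt1 and Slco1a4. The level of the 10 genes was higher too, and the part of these markers in the result was not tested.

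**Figure D3:**
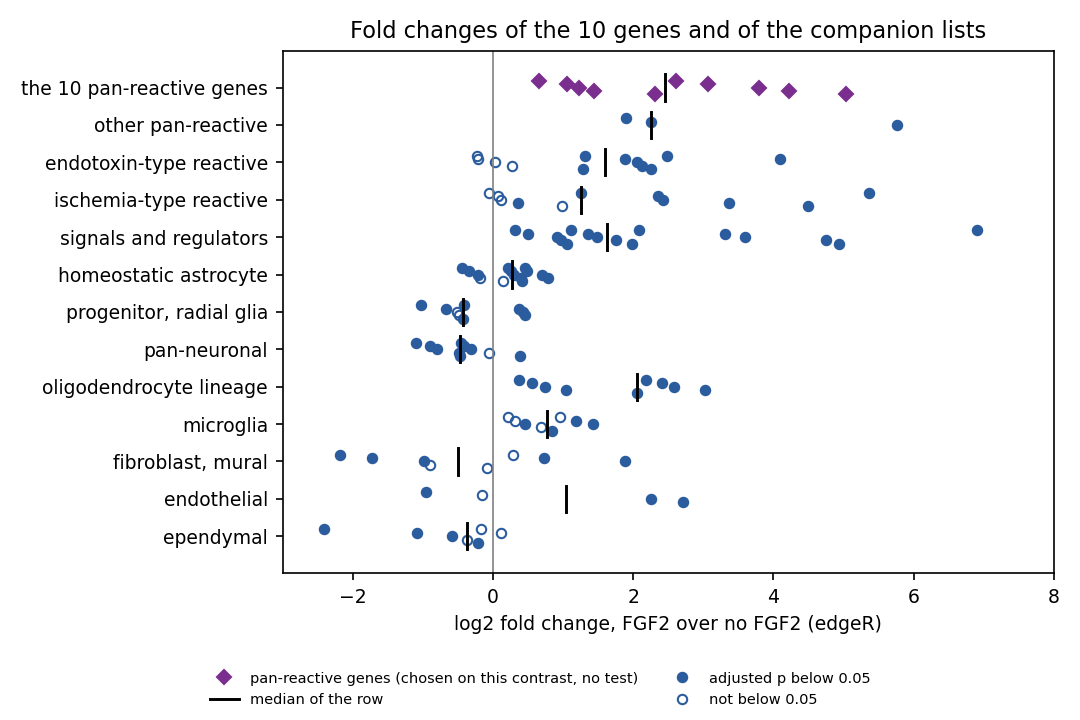
Log2 fold change, FGF2 over no FGF2, of the 10 pan-reactive genes (purple diamonds, chosen on this contrast and shown without a test) and of each tested gene of 12 companion lists (filled circles have an edgeR adjusted p below 0.05), with a vertical bar at the median of each row. The 10 genes have a median of 2.46, the other pan-reactive genes 2.26 and the homeostatic astrocyte markers 0.28.

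Serpina3n has many close relatives on chromosome 12, and 10 of them were looked up. Serpina3i had 4.85 and 6.61 CPM with FGF2 against 0.381 and 0.369 CPM, and Serpina3h had 2.20 and 2.03 CPM against 0.381 and 0.647 CPM. Both passed the filter on low counts through the FGF2 group alone, and their ratios of 15.2 and 4.05 had counting intervals of 7.44 to 36.1 and 2.04 to 8.76. They were the only paralogues tested and were named after their values were seen. Serpina3a, Serpina3b, Serpina3j, Serpina3k and Serpina3m had 0 counts in all libraries, and Serpina3c and Serpina3g had under 4 counts in each. The paralogues summed to 7.27 and 9.15 CPM with FGF2, against 412 and 396 CPM for Serpina3n. Reads shared by near-identical paralogues can be lost in the counting, so a count of 0 in this family is uncertain.

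The genes that lie beside the 10 were examined as a feature that the choice had not used. Within 100 kb of the 10 gene bodies 30 other genes were tested, of which 7 rose, or 23.3%, and 10 fell, or 33.3%, with a median log2 fold change of -0.04, against 20.7% and 19.9% of all tested genes and their median of -0.00082. Next to Gfap, C1ql1, a secreted C1q-related protein, rose from 10.6 and 11.4 to 32.2 and 27.2 CPM, whereas Kif18b, a mitotic kinesin 4617 bases from Gfap, fell from 13.4 and 13.5 to 6.72 and 6.00 CPM. Kif26a next to Aspg fell to 0.501 times its no FGF2 level and Srrm3, a neuronal splicing factor next to Hspb1, to 0.568 times. Of the 8 tested neighbours of Lcn2, 2 rose and 2 fell. Slc1a2, the main glutamate transporter of astrocytes, lies 20357 bases from Cd44 and rose 1.19-fold, from 1084 and 1076 to 1305 and 1273 CPM, against 4.96-fold for Cd44. It was named after its value was seen. Cp overlaps Hps3 on the opposite strand, named for this overlap, which was at 13.6 and 14.9 CPM with FGF2 and 20.1 and 18.2 CPM without. The counts appeared to be strand-specific: of genes lying almost wholly under a same-strand gene 1 of 452 had a count, against 97 of 300 lying under an opposite-strand gene. Serpina3n had no tested neighbour within this distance.

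**Figure D4:**
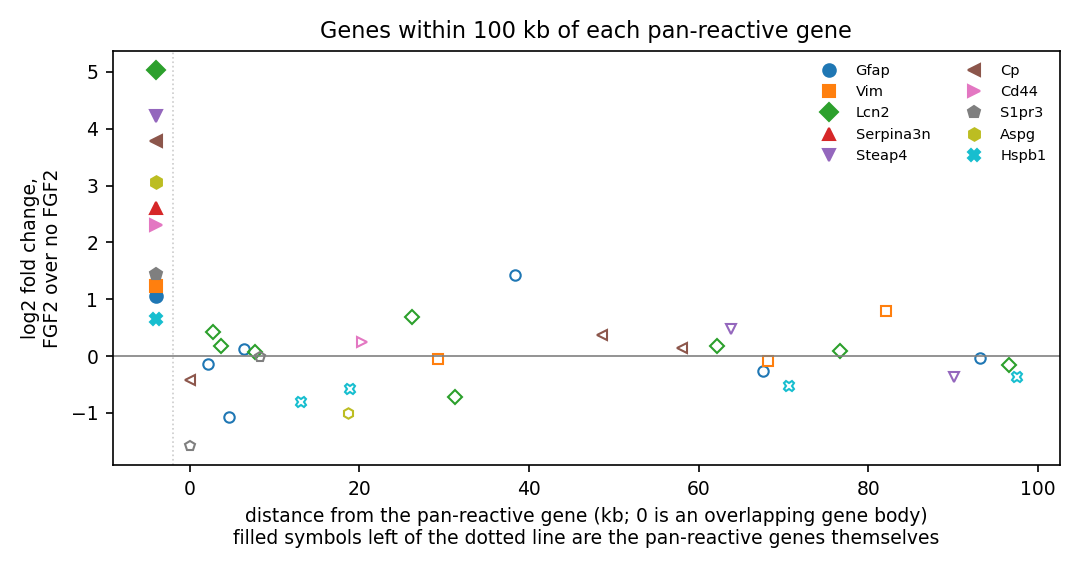
Log2 fold change of each tested gene within 100 kb of a pan-reactive gene (open symbols) against its distance in kb, beside the pan-reactive genes themselves (filled symbols at the left), with 1 symbol and color per pan-reactive gene. The neighbours have a median of -0.04, and C1ql1 near Gfap has 1.43.

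The genes whose pattern over the 4 libraries was most like that of a pan-reactive gene were found by the root mean square difference of log2 CPM, each centred on its own mean, among 12647 genes with a mean of at least 5 CPM. For Gfap these were Gm43011, Card19 and Olig2, an oligodendrocyte lineage factor, at distances of 0.015, 0.018 and 0.018. For Lcn2 they were Tnfaip2, Runx1, a hematopoietic transcription factor, and Acod1, the enzyme that makes itaconate, at 0.060, 0.214 and 0.269. Tnfaip2 was at 156 CPM with FGF2 and 5.06 CPM without, a log2 fold change of 4.94. For Hspb1 they were Fam43a, Gdpd2 and Dusp10 at 0.055, 0.064 and 0.068, a likeness that rests on the few counts of Hspb1. With 4 libraries in 2 groups, such a likeness says mainly that the folds are close.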

How the data were processed

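RNA-seq counts of 4 libraries were used. Per the labels and the study's methods, the authors mapped reads to mm10 with HISAT2 2.1.0, kept reads with a mapping quality of at least 20 with Samtools, and counted with HTSeq 0.11.2, and they deposited raw counts per gene without normalization. The annotation release and strand setting are not given in the sources used here. Reads that HTSeq matched to no counted feature were 43.2% to 45.9% and ambiguous reads 1.47% to 1.76%, and these rows stayed out of library sizes. Gene names and coordinates came from GENCODE M21 on mm10. Counts were fitted with edgeR 4.0.16 in R 4.3.3 (TMM, filterByExpr, robust quasi-likelihood test), with Benjamini-Hochberg adjustment over 17144 genes. Scripts were tested on simulated counts. Copies were sought with BLAST 2.17.0. The alternatives included DESeq2 1.42.0 and limma 3.58.1. Log2 CPM used a prior count of 1. The 10 genes and all lists were chosen with earlier results of these data known. Beside the 10, up to 4 genes per list or among the neighbours were named, those with the largest change past the threshold and a mean of at least 5 CPM, together with list genes under 4 counts in every library and the 3 genes most like Gfap, Lcn2 and Hspb1. A few genes that this rule picks are not reported here. The libraries of a group differed by more than sampling noise, with chi-square per degree of freedom of 2.28 and 1.76, and were kept as 2 each.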

Additional observations from a re-analysis of the deposited data

How the results depend on the processing

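For Gfap, Vim, Lcn2, Serpina3n, Steap4, Cp, Cd44 and S1pr3 the log2 fold change stayed within the spread between libraries under all 13 alternatives. Gfap ran from 1.02 to 1.10 and Lcn2 from 4.91 to 5.20. The fits that leave out 1 library reuse the libraries that define this spread, so for them this was set in advance. The median over the 10 genes was 2.21 with a prior count of 2, where Aspg falls below Cd44, and ran from 2.22 without no FGF2 replicate 1 to 2.51 without no FGF2 replicate 2. DESeq2 called 4007 genes, 2068 higher and 1939 lower, against 6949 with edgeR, 3541 and 3408, and leaving out 1 library gave 5284 to 6271. Microglia markers past the threshold numbered 1 with DESeq2 and 2 to 4 when 1 library was left out. Neighbouring genes past the threshold, 17 in all, numbered 12 with DESeq2 and 13 to 16 with 1 library left out. Serpina3 paralogues past the threshold numbered 1 with DESeq2 and 0 where at least 10 counts were required in every library. The replicate block gave 6814 genes past the threshold, and Kdr and Tppp3 lost their calls under it, with adjusted p-values of 0.056 and 0.051. Fkbp5, Sphk1, Acsbg1, Hes1, Hes5, C1qa and Foxj1, which had not passed, each passed with 1 library left out. Same-numbered libraries deviated from their group means with a correlation of 1.3e-05, so they share a number and no shown pairing. With 2 libraries a group, genes under about 3 counts per library, such as Aspg without FGF2, are limited by depth.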
